A study of Mus musculus with 72 samples.

Results

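The 8 genes of the hepatic urea cycle (Nags, Cps1, Otc, Slc25a15, Slc25a13, Ass1, Asl and Arg1) were followed in mouse liver over the day under 4 ways of feeding. They were found in the deposited count table by the gene symbols that GENCODE M21 gives to its Ensembl identifiers, 8 of 51912 genes in all, and each of the 8 passed the filter on low counts that left 12712 genes for testing. RNA came from the liver of wild-type male C57BL/6J mice that were 43 to 49 days old at the start, lived in 12 h of light and 12 h of dark, and drank freely. Food was given in a night-restricted, an ad libitum or an arrhythmic paradigm, and a further set of mice is labelled as fed arrhythmically but not fully adapted, called incompletely adapted arrhythmic here. Each paradigm was sampled at 6 times, every 4 h from ZT02 to ZT22 (hours of zeitgeber time, counted from lights on), with 3 replicates, which gives 18 libraries a paradigm and 72 in all. The labels do not say how feeding was made arrhythmic, how long it lasted, or whether replicates are separate animals; p-values here cover only the spread between libraries, which may be technical. The study's title names the question, whether rhythmic feeding or the liver clock drives rhythmic gene expression. The libraries read the 3′ end of polyadenylated RNA, and levels are counts scaled to the library total (CPM) with no length term, so they are compared between samples of a gene and not between genes.

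The urea cycle turns toxic ammonia and the amino group of aspartate into urea, mainly in hepatocytes around the portal vein. Its first steps run in mitochondria, where Nags makes N-acetylglutamate, the compound without which Cps1 does not work, Cps1 makes carbamoyl phosphate from ammonia, and Otc joins that to ornithine to give citrulline. Slc25a15 carries ornithine in and citrulline out, and Slc25a13 (citrin) exports aspartate. In the cytosol, Ass1 joins citrulline and aspartate, Asl splits the product into arginine and fumarate, and Arg1 releases urea and returns ornithine. In the liver the enzymes are known to rise with dietary protein, glucagon and glucocorticoids.

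Promoter sequence from RefSeq (GRCm38.p6) was at hand for 5 of the 8 genes, with 6 start sites in all. None was at hand for Cps1, Asl and Arg1, although Asl and Arg1 also differ between feeding paradigms below. Any link between promoter letters and those differences was not tested. The E-box CACGTG, a hexamer that reads the same on both strands and is bound by CLOCK and BMAL1 among other factors, was present in the 250 bases before 3 of the 6 starts, against 6.02% of 32851 promoters of the same length. The stretches below give the E-box in capitals with 10 bases on either side, 5′ to 3′ on the gene's strand.
Ass1: cgcccgtcccCACGTGtcccaggttc
Slc25a13: cagtctgagtCACGTGtcctggcccc
Slc25a15: ccctgccgcaCACGTGccgcggctcc
They lie at chr2:31470224-31470249 on the plus strand, chr6:6217283-6217308 on the minus strand and chr8:22398339-22398364 on the minus strand. Their E-boxes begin 36, 125 and 77 bases before the RefSeq start, and the second start of Slc25a15 has none. In Ass1, GENCODE starts the gene further upstream (chr2:31470207-31520672, plus strand), so the E-box there lies inside the gene bounds. The E-box of Slc25a15 also lies inside the gene as GENCODE bounds it (chr8:22375551-22398597, minus strand). The window of its second start, chr8:22398622-22398871, lies outside these bounds and is the one without an E-box. The window of Slc25a13 lies wholly outside the gene, at chr6:6217174-6217423 on the minus strand, and is given in full with its E-box in capitals.
Slc25a13: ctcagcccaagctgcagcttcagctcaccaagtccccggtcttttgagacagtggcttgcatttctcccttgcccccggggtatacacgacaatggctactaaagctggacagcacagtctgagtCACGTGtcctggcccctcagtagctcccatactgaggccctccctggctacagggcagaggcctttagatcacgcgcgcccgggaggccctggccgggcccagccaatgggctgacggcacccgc
The CCAAT box CCAAT or its reverse complement ATTGG was found in 1 of the 6 windows, that of Slc25a13, and in 33.8% of all promoters. The GC box GGGCGG or CCGCCC was found in 4 of the 6 and in 32.7% of all promoters. The CRE TGACGTCA, the C/EBP palindrome TTGCGCAA, the D-box TTATGTAA or TTACATAA and the TATA box TATAAA or TTTATA were found in none of the 6, against 1.55%, 0.164%, 0.819% and 12.4% of all promoters. These are matches of letters in a window and not binding sites.

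Libraries held 4342026 to 12286021 counts, and a member had at least 295 counts in every library (Nags, the lowest). Among the 8 genes only Nags shares exon bases with another annotated gene, Gm11586 on the opposite strand, which had 2 counts in all libraries together. Libraries also differed in how their levels leaned on base composition. This was measured as a GC slope, the change in log2 level of 8257 genes per 10 percentage points of GC in the last 500 bases of the transcript, relative to the mean library. The slope ran from -0.39 to 0.33 in 67 libraries. The 5 furthest from the median slope, a number fixed by choice and not by a gap, are called extreme here. They are those numbered 1 of night-restricted feeding at ZT22, ZT18, ZT06 and ZT02 (0.37 to 0.59), and incompletely adapted replicate 1 at ZT10 (-0.43). Counts called without these 5 libraries are given beside the results, but without the share of all genes called in that fit. A fall in such a count is therefore not read as particular to the genes counted. Of the 6 hepatocyte markers listed, 5 are in the table and all 5 exceed 1 CPM on average, with summed levels of 23752.7 to 41666.3 CPM. The summed level of 8 periportal markers had a median of 2604 CPM in arrhythmic, 2455 in incompletely adapted, 2171 in ad libitum and 2125 in night-restricted libraries, with overlapping ranges. That of 9 pericentral markers had medians of 2759, 2732, 2804 and 2947 CPM in the same order, also with overlapping ranges. Single periportal markers did not all follow their sum, as with Hal below. The part of either sum in the results was not tested. In whole liver, fewer cells of a type and less RNA per cell cannot be told apart.

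Under night-restricted feeding 4 of the 8 genes were rhythmic (Ass1, Slc25a15, Cps1 and Asl), all with a fitted peak between ZT 18.4 and ZT 23.7, against 29.9% of all genes tested. Under ad libitum feeding 0 of 8 were called (7.48% of all genes), under arrhythmic feeding 1 of 8, Asl (3.37%), and under incompletely adapted arrhythmic feeding 0 of 8 (3.63%). A rhythm is called where the fitted cosine and sine of 24 h differ from 0 in edgeR's quasi-likelihood test at a Benjamini-Hochberg adjusted p under 0.05 over all genes tested. At an unadjusted p under 0.05, 0 of 8 passed under ad libitum feeding, against 2847 of the 12712 genes tested. Under incompletely adapted arrhythmic feeding 2 of 8 (Asl and Arg1) passed, against 1756 of all genes. DESeq2 called 0 members in both. The members' median fitted range, peak to trough on the log2 scale, was 0.58, 0.32, 0.48 and 0.49 in the order above, against 0.71, 0.52, 0.43 and 0.42 for all genes. When the 5 libraries of extreme GC slope were left out the night-restricted count was 3, with Asl lost, and the other 3 counts were unchanged at 0, 1 and 0.

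**Figure D1:**
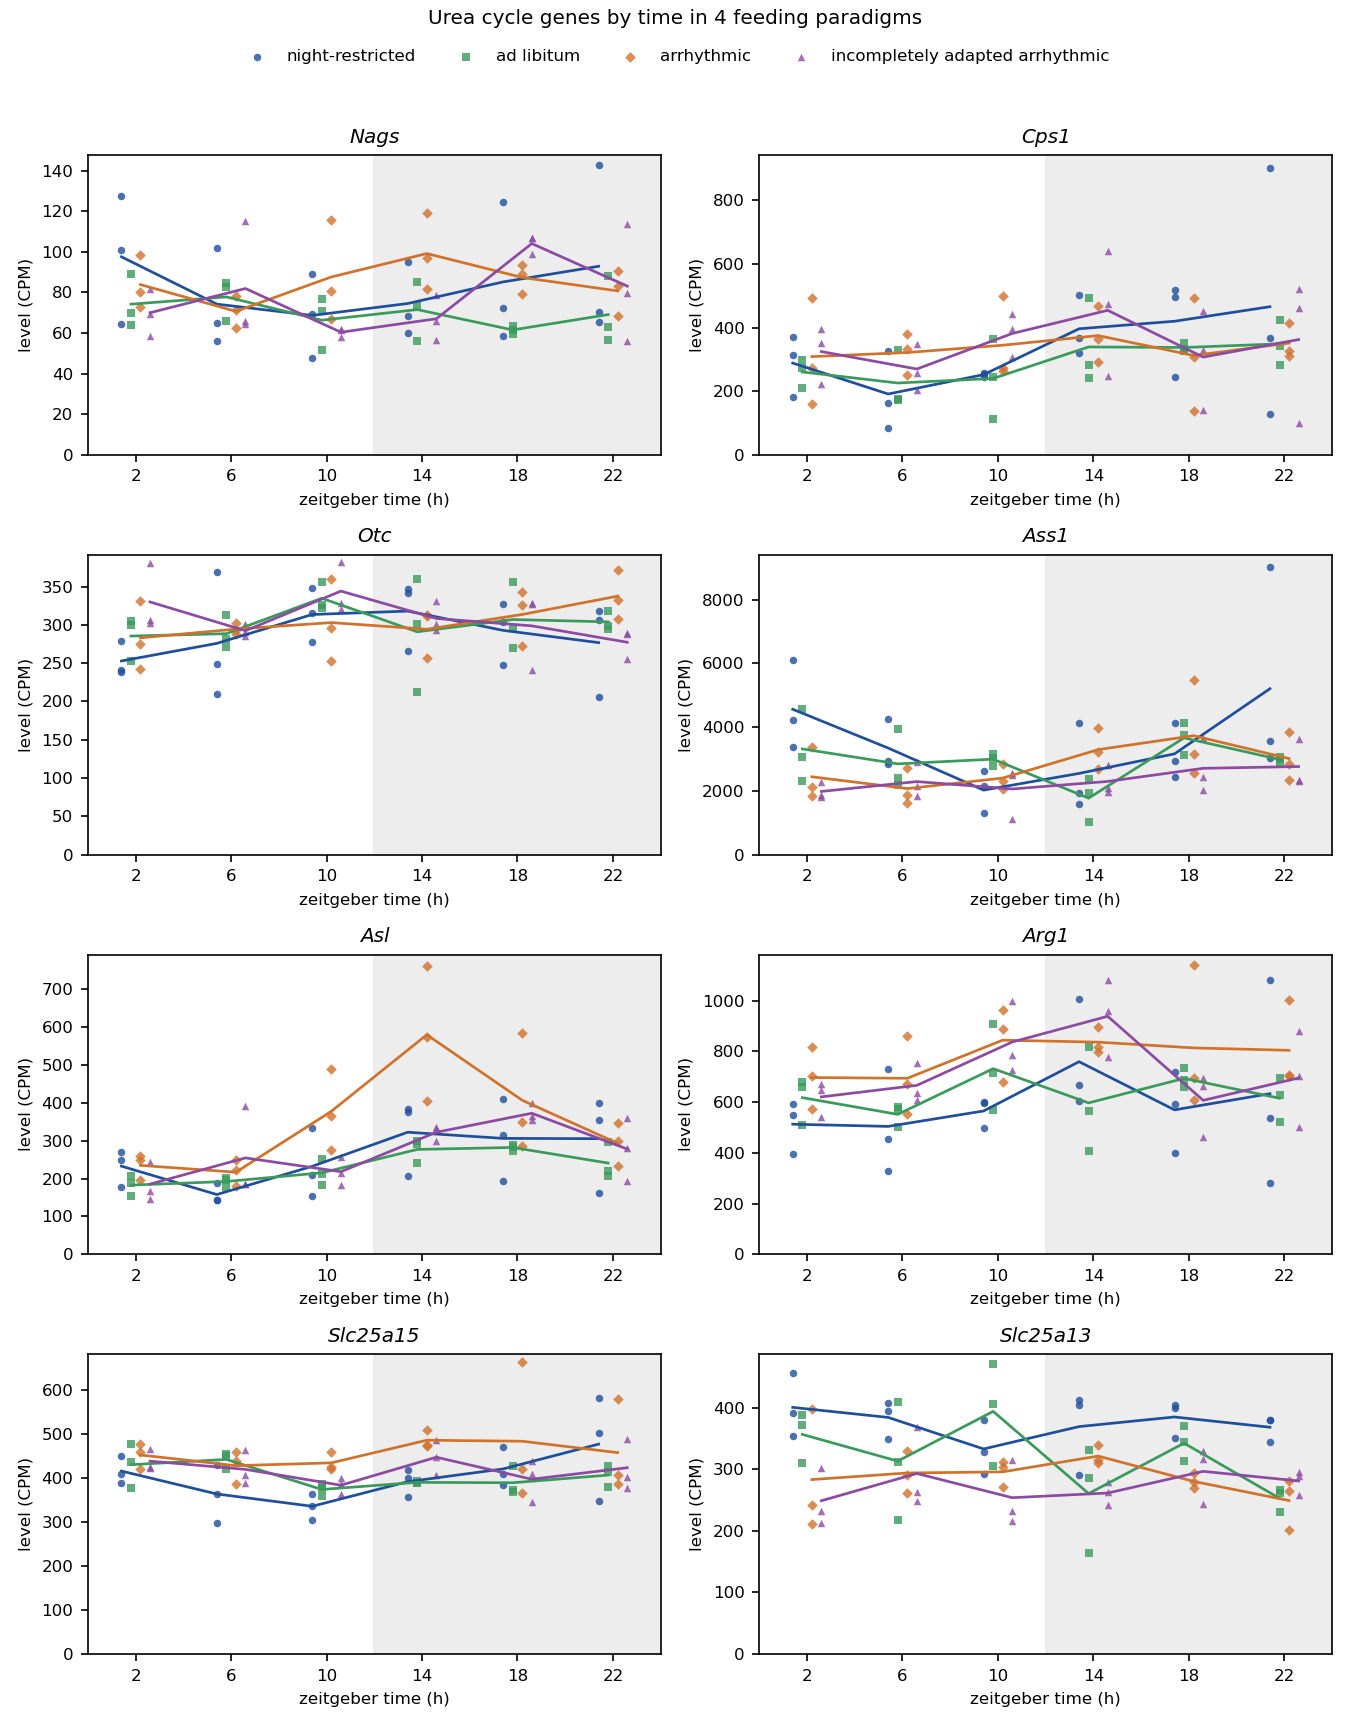
Level of the 8 urea cycle genes (CPM, vertical axes from 0) against zeitgeber time (h), with the dark phase shaded; points are libraries, set slightly apart by paradigm, and lines join the means of 3 replicates. Asl under arrhythmic feeding stands at 405.9 to 760.6 CPM at ZT14, above all 3 libraries of each other paradigm at that time, and Slc25a13 under night-restricted feeding has the highest mean at 5 of 6 times, with ad libitum above it at ZT10.

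The mean level over the day differed among the 4 paradigms for 4 of 8 genes (Slc25a13, Ass1, Asl and Arg1), against 12.3% of all genes tested. The 24 h rhythm differed among the 4 paradigms for 0 of 8 (1.45% of all genes). At an unadjusted p under 0.05, 3 of 8 passed, against 2293 of the 12712 genes tested. DESeq2 called 2 of 8, Ass1 and Slc25a15, and its share of all genes is not given here. Between arrhythmic and night-restricted feeding the mean differed for 2 genes, with Arg1 higher and Slc25a13 lower (6.92% of all genes, 1.76% higher and 5.16% lower), and the rhythm for 2, Ass1 and Slc25a15 (3.89%, 0.267% with a larger and 3.63% with a smaller range). Between incompletely adapted arrhythmic and night-restricted feeding the mean was lower for 2, Slc25a13 and Ass1 (18% of all genes, 6.85% higher and 11.2% lower), and the rhythm differed for 0 (0.614%, of which 0.0472% with a larger and 0.566% with a smaller range). Between arrhythmic and ad libitum feeding 1 gene, Asl, was higher (2.1% of all genes, 0.661% higher and 1.44% lower), and the rhythm differed for 0 (0.0236%). These comparisons share libraries: both arrhythmic paradigms were set against the same 18 night-restricted libraries.

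Night-restricted and ad libitum feeding differed for 0 of 8 genes in mean (1.62% of all genes) and for 0 of 8 in rhythm (0%). The 2 arrhythmic paradigms differed for 0 of 8 in mean (0%) and for 0 of 8 in rhythm (0%). In these 4 comparisons 2, 1, 2 and 0 members had an unadjusted p under 0.05 in edgeR, against 2085, 1109, 639 and 310 of the 12712 genes tested. DESeq2 called 0 members in each. For the rhythm between arrhythmic and ad libitum feeding, with 0 calls above, 3 members had an unadjusted p under 0.05, against 1150 of 12712 genes. Between incompletely adapted and night-restricted feeding 1 member did, against 1855 of 12712 genes. DESeq2 called 0 members in both. Without the 5 libraries of extreme GC slope, 2 genes differed in mean among the 4 paradigms (Slc25a13 and Asl). The counts then were 0 in mean and 1 in rhythm (Ass1) between arrhythmic and night-restricted feeding, 1 in mean (Slc25a13) between incompletely adapted and night-restricted feeding, and 1 in mean (Asl) between arrhythmic and ad libitum feeding.

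Nags (chr11:102145513-102149477, plus strand), which makes the activator of Cps1, had no called rhythm and no called difference in mean. Its level over the 18 libraries ran from 47.6 to 143.0 CPM with a median of 69.9 under night-restricted feeding and from 51.6 to 88.9 with a median of 67.9 under ad libitum feeding. It ran from 62.5 to 119.0 with a median of 81.1 under arrhythmic feeding, and from 56.1 to 115.1 with a median of 67.9 under incompletely adapted arrhythmic feeding. The 4 ranges overlap. The high night-restricted values belong to 1 replicate number: replicate 1 stood at 88.9 to 143.0 CPM over the 6 times, replicate 2 at 56.0 to 100.9 and replicate 3 at 47.6 to 70.2. Nags followed the GC slope more closely than any other member, with a Pearson r of 0.85 over the 72 libraries and 0.92 for deviations from the group means, given as a description of libraries that share 1 slope. Its last 500 bases hold 56.4% GC. When the GC slope entered the fit, its rhythm under night-restricted feeding was called (range 0.48, adjusted p = 0.00685). The difference between arrhythmic and night-restricted feeding then turned from -0.04 ± 0.14 (SE) to 0.23 on the log2 scale (adjusted p = 0.0181), so the direction for this pair depends on that choice. Between arrhythmic and ad libitum feeding the difference kept its direction, at 0.27 ± 0.14 without and 0.30 with the slope, and was called only with it (adjusted p = 0.386 and 0.00137). The mean among the 4 paradigms was also called with the slope (adjusted p = 0.00102).

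Cps1 (chr1:67123026-67231259, plus strand), the enzyme of the entry step, was rhythmic under night-restricted feeding, with a fitted range of 1.22 ± 0.34 (log2, SE) and a peak at ZT 18.9 (adjusted p = 0.0178). There it stood at 84.6, 325.9 and 162.9 CPM at ZT06 and at 127.9, 367.4 and 901.3 CPM at ZT22. These groups, of lowest and highest mean, overlap, since replicate 1 at ZT22 lies below 2 of the libraries at ZT06. Without replicate 1 at ZT06 or without replicate 3 at ZT22 of this paradigm the adjusted p was 0.0698 and 0.0567. The call was also lost without all libraries numbered 2 (0.0575) or 3 (0.21). With time as a factor (0.211) and with the paradigm's own libraries only (0.0708) it failed as well. Under ad libitum feeding the range was 0.69 ± 0.34, under arrhythmic feeding 0.38 ± 0.34 and under incompletely adapted arrhythmic feeding 0.50 ± 0.34, none of them called. The difference in range, arrhythmic less night-restricted, was -0.83 ± 0.47, and the joint test of cosine and sine between the 2 was not passed (adjusted p = 0.207). Mean levels were 335 ± 188 CPM in night-restricted, 292 ± 92.5 in ad libitum, 335 ± 107 in arrhythmic and 350 ± 139 in incompletely adapted libraries (SD, n = 18 each). Cps1 moved against the GC slope, with r of -0.67 over the libraries and -0.77 within groups, and its last 500 bases hold 33.2% GC.

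Otc (X:10252305-10321024, plus strand), which makes citrulline, was the steadiest member. Its level ran from 206.0 to 382.8 CPM over all 72 libraries, with a coefficient of variation of 13.3%, against 14.2% for Slc25a15 and up to 41.3% for Cps1. Its paradigm means were 288 ± 49.6 CPM in night-restricted, 302 ± 37.2 in ad libitum, 304 ± 36.2 in arrhythmic and 309 ± 36.0 in incompletely adapted libraries (SD, n = 18 each). No rhythm was called, with fitted ranges of 0.13 to 0.27, and the differences in mean lay between -0.02 and 0.02 on the log2 scale. The 95% interval of the difference between arrhythmic and night-restricted feeding ran from -0.10 to 0.14. That of Cps1 for the same pair ran from -0.31 to 0.34 and that of Nags from -0.31 to 0.23, a wider span than for Otc.

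Slc25a15 (chr8:22375551-22398597, minus strand), the ornithine and citrulline carrier, was rhythmic under night-restricted feeding with a fitted range of 0.50 ± 0.12 and a peak at ZT 21.9 (adjusted p = 0.00572). It was lowest there at ZT10, with 337.9, 364.9 and 305.8 CPM, and highest at ZT22, with 347.8, 502.4 and 582.5 CPM. Replicate 1 at ZT22 lies within the range at ZT10, so these groups overlap. Under arrhythmic feeding the fitted range was 0.35 ± 0.12 with a peak at ZT 15.4, and the call failed (adjusted p = 0.245). The 2 fitted peaks lie 6.56 ± 1.66 h apart (SE). The test of the difference in rhythm passed at the edge of the threshold (adjusted p = 0.05, 0.04997 before rounding) and failed when any 1 of 34 libraries of the 72 was left out (0.0503 to 0.103). Without the 5 libraries of extreme GC slope it also failed. The mean level was 458 ± 71.6 CPM (SD, n = 18) under arrhythmic feeding and 401 ± 70.0 under night-restricted feeding, a log2 difference of 0.13 ± 0.06 that was not called (adjusted p = 0.175).

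Slc25a13 (chr6:6041218-6217173, minus strand), the aspartate carrier citrin, was lower under both arrhythmic paradigms than under night-restricted feeding. Over 18 libraries it ran from 291.4 to 456.8 CPM with a median of 379.9 under night-restricted feeding, and from 164.6 to 471.3 with a median of 312.7 under ad libitum feeding. It ran from 201.1 to 397.2 with a median of 285.9 under arrhythmic feeding, and from 212.3 to 367.7 with a median of 262.7 under incompletely adapted arrhythmic feeding. The ranges overlap, but the mean of each arrhythmic paradigm lay below the night-restricted mean at 6 of 6 times. At 3 of 6 times all arrhythmic libraries, and at 4 of 6 times all incompletely adapted ones, lay below all night-restricted libraries. At ZT22, for example, the night-restricted libraries stood at 380.2, 379.7 and 344.7 CPM, the arrhythmic ones at 201.1, 281.3 and 265.2, and the incompletely adapted ones at 288.8, 295.7 and 258.4. The log2 difference from night-restricted feeding was -0.45 ± 0.10 under arrhythmic feeding (0.731-fold, adjusted p = 0.00523) and -0.55 ± 0.10 under incompletely adapted arrhythmic feeding (0.681-fold, adjusted p = 0.000281).

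Both Slc25a13 differences were called whichever 1 of the 72 libraries was left out, but neither was when all libraries numbered 1 were, at -0.29 (adjusted p = 0.275) and -0.46 (adjusted p = 0.0759). The GC slope averaged 0.0923 in night-restricted, -0.0139 in arrhythmic and -0.0814 in incompletely adapted libraries. Slc25a13 correlated with it at r of 0.59 over libraries and 0.48 within groups. Its transcript end, where GC was measured, holds 41.7% GC. Over libraries, Arg1, at 44.9% GC, had r of -0.45, Slc25a15, at 44.9%, had 0.29 and Otc, at 32.9%, had -0.13. Nags, Asl and Ass1, at 53.7% to 56.4%, had 0.36 to 0.85, and Cps1, at 33.2%, had -0.67. Whether a member's own GC sets its r was not tested. Without the 5 libraries of extreme slope the 2 Slc25a13 differences were -0.33 (adjusted p = 0.104) and -0.41 (adjusted p = 0.0282), so only the second kept its call. With the slope as a covariate instead of leaving libraries out, both kept it. Ad libitum feeding lay between. The log2 difference of night-restricted from ad libitum feeding was 0.28 ± 0.10 (adjusted p = 0.132) and that of arrhythmic from ad libitum feeding -0.17 ± 0.10 (adjusted p = 0.468), neither called. No rhythm of Slc25a13 was called in any paradigm.

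Ass1 (chr2:31470207-31520672, plus strand), the enzyme that brings in aspartate, had the largest fitted range of the members under night-restricted feeding, 1.35 ± 0.29 with a peak at ZT 23.7 (adjusted p = 0.00107). It stood there at 1300.8, 2141.7 and 2624.6 CPM at ZT10 and at 3568.4, 3036.1 and 9007.4 CPM at ZT22. All 3 libraries at ZT22 lie above all 3 at ZT10, and replicate 3 at ZT22 is the highest of the 72 libraries. At ZT02 it stood at 4217.0, 3369.1 and 6091.8 CPM. Under arrhythmic feeding the highest mean lay at ZT18: Ass1 was at 1605.2, 2728.2 and 1877.2 CPM at ZT06 and at 3150.3, 2546.4 and 5492.3 CPM at ZT18. These groups overlap, the fitted range was 0.96 ± 0.29 with a peak at ZT 17.0, and the rhythm was not called (adjusted p = 0.112).

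The rhythm of Ass1 differed between arrhythmic and night-restricted feeding (adjusted p = 0.0138), with fitted peaks 6.77 ± 1.40 h apart and a difference in range of -0.39 ± 0.41. At ZT06 all 3 arrhythmic libraries lay below all 3 night-restricted ones, at 2853.8, 2932.0 and 4240.2 CPM. The call held whichever 1 of the 72 libraries was left out (0.00522 to 0.0351), without the 5 libraries of extreme slope, and when the slope entered the fit. It was lost when all libraries numbered 1 or 2 were left out and when time was fitted as a factor (adjusted p = 0.343, 0.164 and 0.192). Ass1 correlated with the GC slope at r of 0.36 over libraries and 0.10 within groups.

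The mean of Ass1 was also lower under incompletely adapted arrhythmic feeding, at 2349 ± 625 CPM (SD, n = 18), than under night-restricted feeding, at 3472 ± 1798. The log2 difference was -0.59 ± 0.14 (0.667-fold, adjusted p = 0.0048). The widest gap was at ZT02, where the incompletely adapted libraries stood at 1878.7, 1791.4 and 2272.1 CPM, all below the 3 night-restricted ones. The call was lost without the 5 libraries of extreme GC slope (-0.55, adjusted p = 0.0545), without all libraries numbered 1 (-0.60, adjusted p = 0.103) and without all numbered 3, where the difference shrank to -0.31 (adjusted p = 0.0889). Under arrhythmic feeding the mean was 2825 ± 943 CPM and under ad libitum feeding 2929 ± 844. Neither differed from night-restricted feeding past the threshold (adjusted p = 0.153 and 0.432).

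Asl (chr5:130011258-130029247, minus strand), which releases arginine, was the member called rhythmic under arrhythmic feeding. There it stood at 180.8, 248.2 and 221.4 CPM at ZT06 and at 405.9, 760.6 and 572.6 CPM at ZT14. The lowest library at ZT14 is above the highest at ZT06. The fitted range was 1.56 ± 0.28 with a peak at ZT 14.7 (adjusted p = 0.000325), and this call held under every alternative run. Under night-restricted feeding Asl ran from 188.9, 142.2 and 142.5 CPM at ZT06 to 384.3, 206.2 and 376.7 CPM at ZT14, with a fitted range of 0.93 ± 0.28 and a peak at ZT 18.4 (adjusted p = 0.0333). That call was lost without any 1 of 5 libraries of the paradigm (adjusted p = 0.0582 to 0.0918). These were replicate 1 at ZT18 or ZT22, replicate 2 at ZT06, and replicate 3 at ZT06 or ZT10. The call was also lost without all libraries numbered 1 (0.192) or 3 (0.289). With time as a factor (0.212) and with the paradigm's own libraries only (0.143) it failed as well.

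In the other 2 paradigms the fitted peak of Asl lay in the same part of the night, at ZT 16.3 with a range of 0.63 ± 0.28 under ad libitum feeding and at ZT 16.8 with a range of 0.83 ± 0.28 under incompletely adapted arrhythmic feeding. Neither was called (adjusted p = 0.287 and 0.17). When the GC slope entered the fit both were (ranges 0.96 and 0.90, adjusted p = 0.00156 and 0.00396), and under incompletely adapted arrhythmic feeding also when replicate 3 at ZT06, at 391.8 CPM beside 186.7 and 185.2, was left out (range 1.24, adjusted p = 0.00515). The rhythm of Asl did not differ between arrhythmic and night-restricted feeding past the threshold (range difference 0.63 ± 0.40, adjusted p = 0.077). Asl correlated with the GC slope at r of 0.41 over libraries and 0.71 within groups.

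The mean of Asl was higher under arrhythmic than under ad libitum feeding, at 351 ± 157 CPM (SD, n = 18) against 232 ± 46.8. The log2 difference was 0.53 ± 0.14 (1.45-fold, adjusted p = 0.0276). The arrhythmic mean was the higher at 6 of 6 times, and at ZT10 and ZT14 all its libraries were above all ad libitum ones. At ZT14 the ad libitum libraries stood at 240.5, 290.1 and 300.1 CPM. The call held without each single library and without the 5 of extreme slope, and was lost when all libraries of any 1 replicate number were left out, with a difference of 0.49 to 0.60.

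Arg1 (chr10:24915221-24927484, minus strand), the urea-releasing enzyme, was higher under arrhythmic than under night-restricted feeding. It ran from 552.0 to 1138.4 CPM with a median of 751.6 under arrhythmic feeding, and from 281.0 to 1081.2 with a median of 592.6 under night-restricted feeding. It ran from 407.5 to 908.8 with a median of 645.1 under ad libitum feeding, and from 462.2 to 1080.1 with a median of 699.3 under incompletely adapted arrhythmic feeding. The ranges overlap throughout, and the means of both arrhythmic paradigms were above the night-restricted mean at 6 of 6 times. The log2 difference was 0.36 ± 0.10 under arrhythmic feeding (1.28-fold, adjusted p = 0.024) and 0.22 ± 0.10 under incompletely adapted arrhythmic feeding, where it was not called (adjusted p = 0.111). The arrhythmic call was lost without the 5 libraries of extreme GC slope (0.25, adjusted p = 0.259) and without all libraries numbered 1 (0.21, adjusted p = 0.437) or 2 (0.40, adjusted p = 0.062). It was also lost with no filter on low counts (adjusted p = 0.0505) and with the 2 paradigms' own libraries (adjusted p = 0.0509). Arg1 correlated with the slope at r of -0.45 over libraries and -0.47 within groups. No rhythm of Arg1 was called, with fitted ranges of 0.17 to 0.53.

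**Figure D2:**
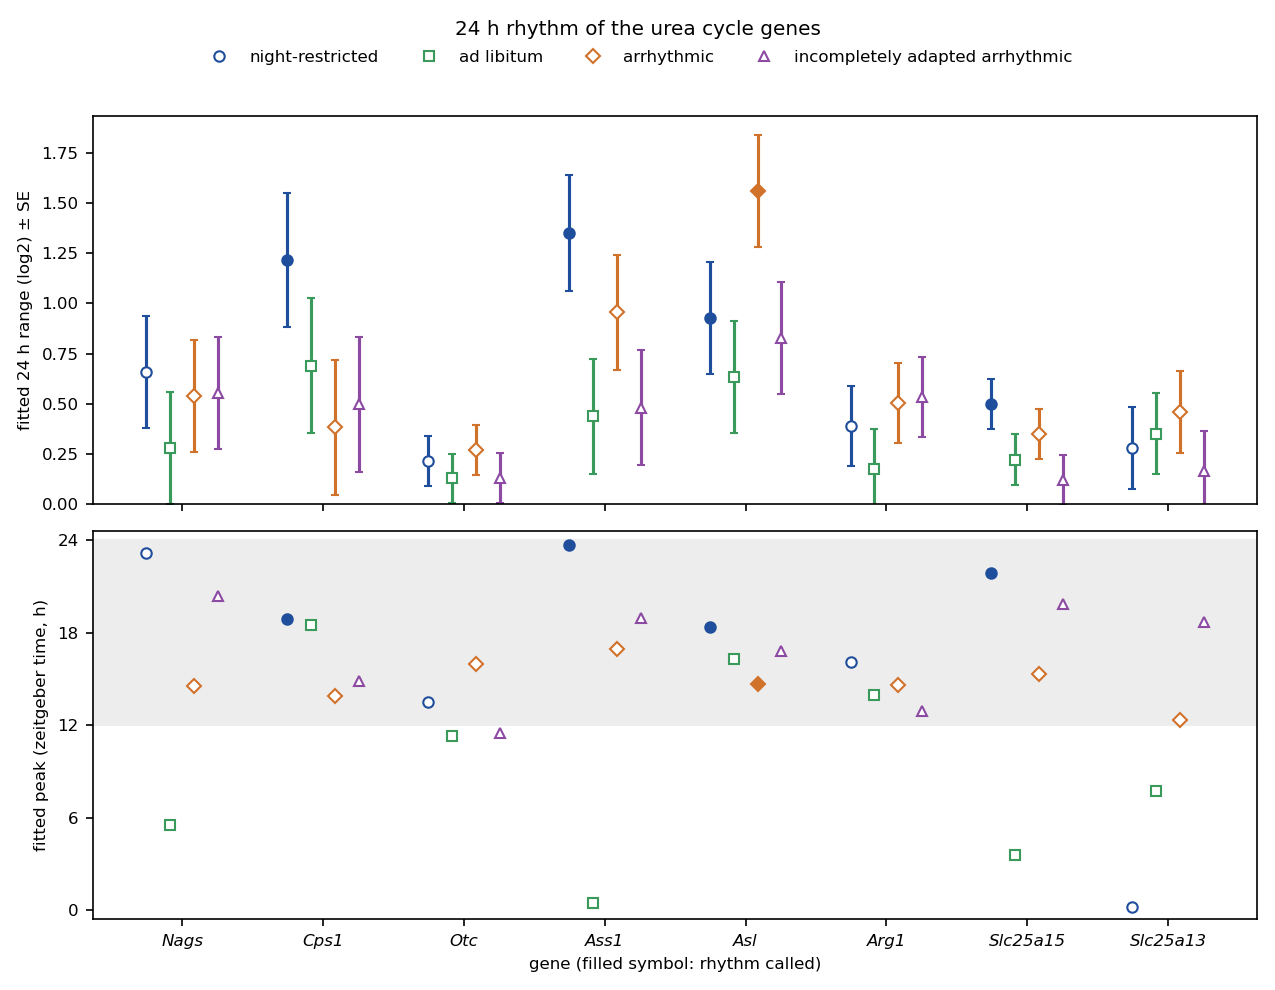
Fitted 24 h range (log2, peak to trough, with its SE) and fitted peak time (h) of the 8 genes in the 4 paradigms; filled symbols are called rhythms. Filled symbols are 4 under night-restricted feeding, with peaks from ZT 18.4 to ZT 23.7, and Asl under arrhythmic feeding at ZT 14.7.

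**Figure D3:**
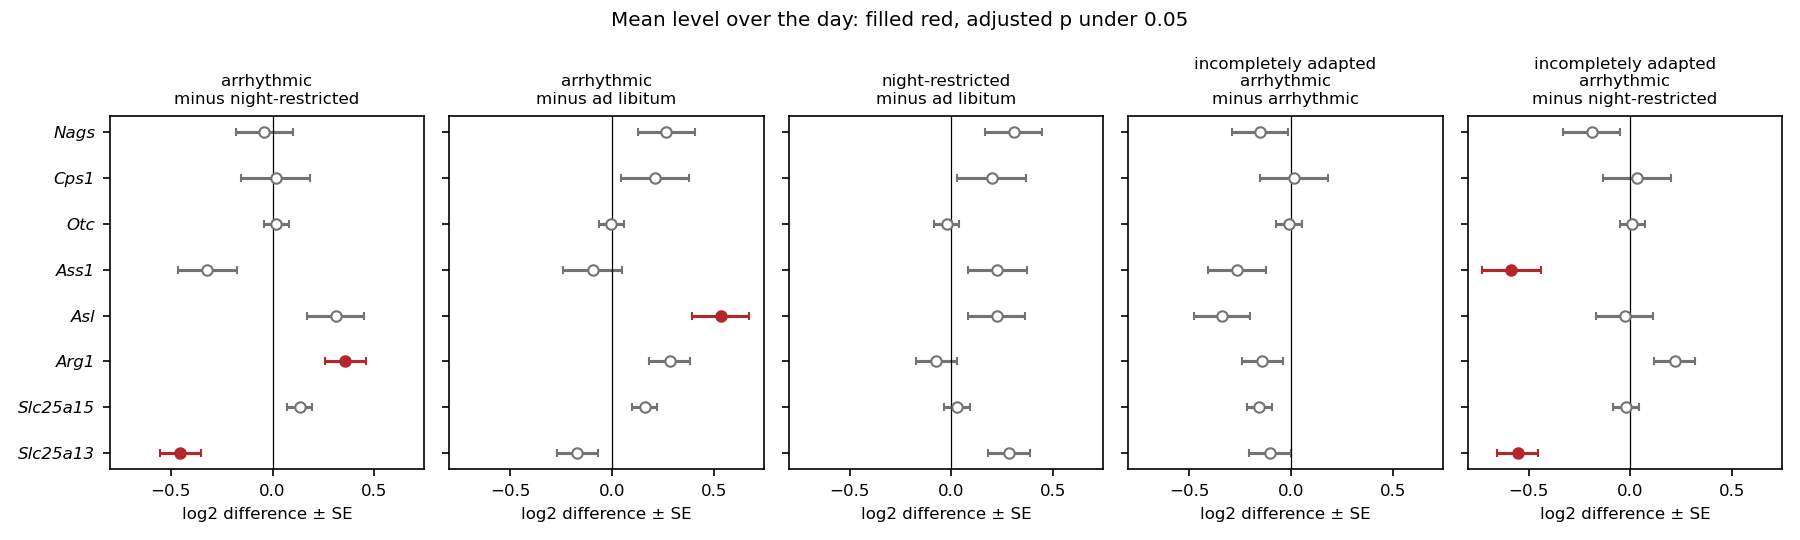
Log2 difference in mean level over the day (horizontal axis, with its SE) for the 8 genes in 5 pairs of paradigms; filled red points passed an adjusted p of 0.05. Slc25a13 lies at -0.45 and -0.55 against night-restricted feeding, with Arg1 at 0.36, Ass1 at -0.59 and Asl at 0.53 as the other filled points.

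The members moved only in part together over the 24 group means. For Nags and Slc25a15 each was the other's closest member (Pearson r of 0.72), and so were Ass1 and Slc25a13 (0.70). The closest to Cps1 was Asl (0.61), to Asl Nags (0.62), to Arg1 Asl (0.62) and to Otc Arg1 (0.53). Among 6458 other genes with at least 10 CPM, those closest to the members' mean course were Ahcy, which hydrolyses S-adenosylhomocysteine (0.89), Sfxn2 of the mitochondrial sideroflexin family (0.88), Pole4, a subunit of a DNA polymerase (0.87), Gm5678 (0.85) and the translation factor Eif5a (0.85). These are descriptions of 24 points that share libraries.

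**Figure D4:**
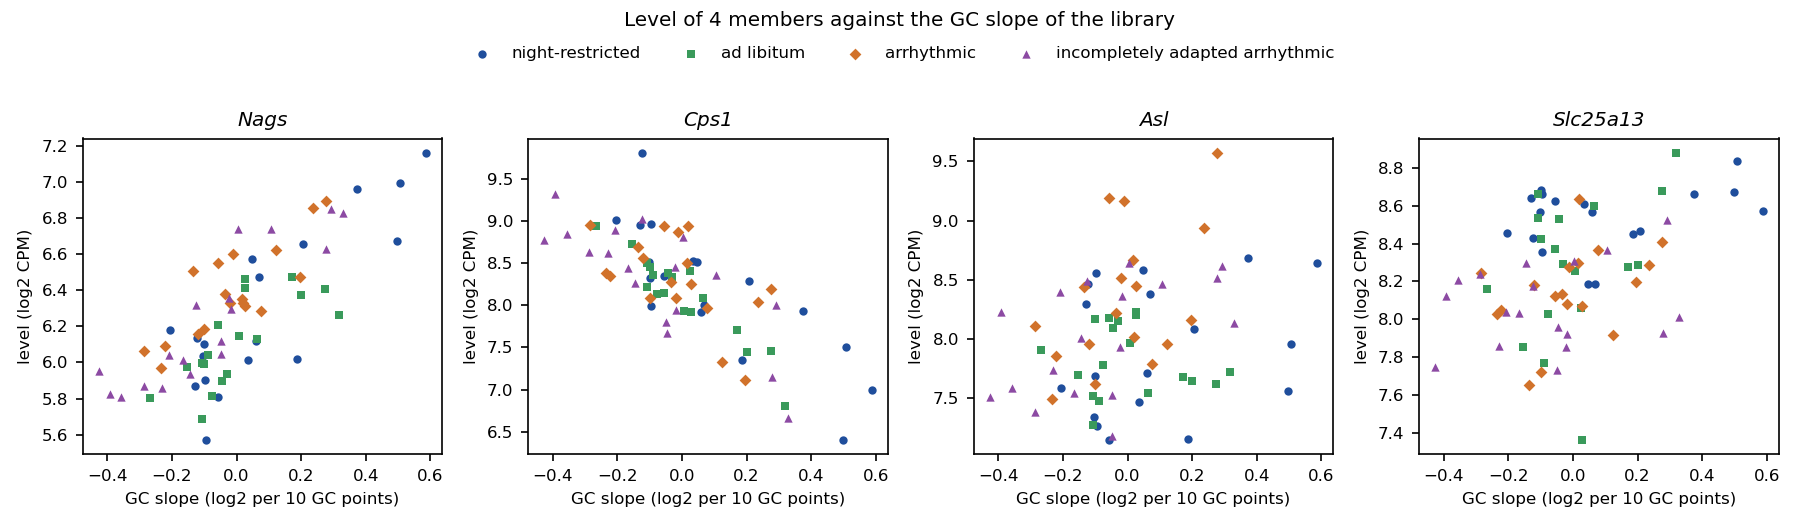
Level (log2 CPM) of 4 members against the GC slope of the library (log2 change per 10 percentage points of GC), 1 point a library. Nags rises with the slope (r = 0.85) and Cps1 falls (r = -0.67), while Asl (0.41) and Slc25a13 (0.59) are more scattered; the 4 points at the right edge are night-restricted libraries.

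Of the 16 listed genes that supply or remove ammonia and glutamine, 15 were tested, and 8 were rhythmic in night-restricted, 5 in ad libitum, 5 in arrhythmic and 3 in incompletely adapted libraries, where 29.9%, 7.48%, 3.37% and 3.63% of all genes were. Slc38a3, a glutamine transporter, was called in all 4, with fitted ranges of 1.24, 1.87, 1.53 and 1.18 and peaks between ZT 9.05 and ZT 11.1. Glul, glutamine synthetase of hepatocytes around the central vein, was called under night-restricted feeding (range 0.74 ± 0.17, peak ZT 9.53). Got1 and Gpt, the aspartate and alanine transaminases, were called under arrhythmic feeding, with peaks at ZT 14.2 and ZT 13.3. Under night-restricted feeding the median fitted range was 0.74 in this list, and 0.85, 0.70 and 0.80 in the 3 lists that follow, against 0.71 for all genes. The mean differed among paradigms for 1 of the 15, against 12.3% of all genes. This was the neutral amino acid transporter Slc1a5, a gene at the low level of 1.86 to 2.77 CPM in the paradigm means. It was lower under incompletely adapted than under night-restricted feeding, with a log2 difference of -0.69 ± 0.16 (adjusted p = 0.00332), and this list had no called mean without the 5 libraries of extreme GC slope.

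Of 19 listed genes of the arginine, ornithine and polyamine branches, 17 were tested, and 5, 1, 2 and 1 were rhythmic in the same order. The night-restricted count is near the background of 29.9% of all genes, and the others stand against 7.48%, 3.37% and 3.63%. Odc1, which turns ornithine into putrescine, was called under night-restricted (peak ZT 17.1) and arrhythmic feeding (peak ZT 13.3). The mean differed among paradigms for 2 of the 17, near the background of 12.3% of all genes. These were Oaz2 and Oaz1, the antizymes that lead Odc1 protein to degradation. Oaz2 averaged 116 ± 33.7 CPM under night-restricted and 85.9 ± 15.0 under incompletely adapted arrhythmic feeding (SD, n = 18), a log2 difference of -0.52 ± 0.11 (adjusted p = 0.00105), and Oaz1 differed by -0.77 ± 0.20 (adjusted p = 0.00698). Among the 17, 0 differed in mean among paradigms without the 5 libraries of extreme GC slope.

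All 40 listed genes of amino acid catabolism were tested, and 18, 5, 5 and 2 were rhythmic in the same order, against the same 4 shares of all genes (29.9%, 7.48%, 3.37% and 3.63%). The mean differed among paradigms for 10 of them (12.3% of all genes). Between incompletely adapted arrhythmic and night-restricted feeding 11 differed, 2 higher and 9 lower, against 6.85% higher and 11.2% lower of all genes. Dbt and Bckdha, which encode subunits of the branched-chain keto acid dehydrogenase complex, went opposite ways: Dbt was higher (log2 difference 0.35 ± 0.09) and Bckdha lower (-0.52 ± 0.14). Hal, which opens histidine breakdown, was lower with a log2 difference of -0.47 ± 0.09, and Ftcd, of the same pathway, with -0.76 ± 0.19. Sds, serine dehydratase, was higher under arrhythmic than under ad libitum feeding, at 11.3 ± 8.23 against 4.73 ± 5.07 CPM (SD, n = 18). With the 5 libraries of extreme GC slope left out, 3 of the 40 differed in mean among paradigms and 1 between incompletely adapted and night-restricted feeding.

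The 24 h rhythm differed among the 4 paradigms for 2 of these 40 (1.45% of all genes), Cbs and Ahcy, enzymes of methionine breakdown. Cbs peaked at ZT 1.35 under night-restricted feeding. Its fitted range was 1.98 ± 0.31 there and 0.20 ± 0.31 with arrhythmic feeding. Ahcy was called in 3 paradigms, with peaks at ZT 21.4 in night-restricted, ZT 15.7 in arrhythmic and ZT 17.6 in incompletely adapted libraries. Its peak was thus earlier under arrhythmic than under night-restricted feeding. Among the members the fitted peaks of Ass1, Slc25a15 and Asl were also earlier, by 6.77 ± 1.40, 6.56 ± 1.66 and 3.72 ± 1.34 h (SE). Nags (8.63 ± 2.55 h) and Cps1 (4.99 ± 3.51 h) were earlier too, but Nags had no called rhythm in either paradigm. Arg1 (1.51 ± 2.49 h earlier) and Otc (2.4 ± 2.8 h later) lay within their SE. The peaks of Slc25a13 lay 11.9 ± 3.24 h apart, so neither can be called the earlier. Of the members only Asl had a called arrhythmic rhythm. The 2 calls of a difference in rhythm, of Cbs and Ahcy, were absent without the 5 libraries of extreme GC slope.

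Of 20 listed regulators of nitrogen metabolism 19 were tested, and 9, 5, 2 and 2 were rhythmic, beside 29.9%, 7.48%, 3.37% and 3.63% of all genes. Atf4, a transcription factor of the amino acid response, was lower under arrhythmic (log2 difference -0.36 ± 0.10) and incompletely adapted arrhythmic feeding (-0.34 ± 0.10) than under night-restricted feeding. Cebpa, a hepatocyte transcription factor known to drive urea cycle genes, was lower under incompletely adapted than under night-restricted feeding, at 732 ± 195 against 954 ± 411 CPM (SD, n = 18). Fgf21, a liver hormone of fasting and protein shortage, was higher there, but at 0.978 ± 0.668 against 0.299 ± 0.283 CPM (SD, n = 18) it rests on few counts. Leaving out those 5 libraries left 0 of the 19 with a difference in mean among paradigms.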

How the data were processed

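Raw counts per gene were deposited by the authors for 72 libraries made with a 3′ mRNA kit, per the labels' protocols. The submitters' processing notes name the aligner STAR (2.4.2a) and 2 builds, mm10 and GRCm38.p5. The counting tool is not given in the sources used here. A second deposited table held the same counts scaled to the library total and was not used. Of 51912 identifiers, 51719 had a symbol in GENCODE M21, and those without held 0.00309% of counts. Levels are CPM, a count divided by the library total. Tests used edgeR 4.0.16 in R 4.3.3 (filterByExpr over the 24 groups, TMM, robust quasi-likelihood fit) with a mean, cosine and sine of 24 h for each paradigm in 1 fit of all libraries, adjusted by Benjamini-Hochberg over 12712 genes. The alternatives were DESeq2 1.42.0, its size factors, no filter, a replicate block, the GC slope as a covariate, time as a factor, each comparison's own libraries, and libraries left out. Fits leaving out 1 library kept the dispersion trend of the full fit. The code was tested on simulated data. No 2 libraries of a group agreed within counting noise (lowest chi-square per degree of freedom 13.8). Totals of 4342026 to 12286021 set the precision of each level, and p-values rest on the spread between replicates. In each other list, up to 5 genes of smallest p among those called in the tests over all 4 paradigms were to be named, as were all members. Others named were chosen after their values were seen. The members and lists were chosen with earlier results of these data known.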

Additional observations from a re-analysis of the deposited data

Results flagged for a closer look

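The rhythm of Ass1 differed between arrhythmic and night-restricted feeding by the test of the difference itself (adjusted p = 0.0138), with fitted peaks at ZT 17.0 and ZT 23.7. The rhythm of Slc25a15 differed by the same test at the edge of the threshold (adjusted p = 0.04997), with fitted peaks at ZT 15.4 and ZT 21.9. Groups of 3 libraries are too small for the test of single outlying samples.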

How the results depend on the processing

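Counts of called members are given in the order of the text. The share of all genes called is not given for these alternatives or for those with replicates left out. Neither a rise nor a fall in a count is therefore read as particular to the members. Under night-restricted feeding the rhythmic count of 4 became 1 with time as a factor and 1 with the paradigm's own libraries, and Ass1 was the gene left. Under ad libitum feeding 0 became 1 (Asl) with the GC slope, with the replicate block and GC slope together, and with own libraries. Under arrhythmic feeding 1 became 2 with own libraries (Ass1 added), and under incompletely adapted arrhythmic feeding 0 became 1 (Asl) with the GC slope and with the block and slope together. For the mean among 4 paradigms 4 became 2 without the 5 libraries of extreme GC slope. With the slope as a term Ass1 (adjusted p = 0.0573) and Arg1 (0.0515) lost this call and Nags gained it, and with block and slope Nags took the place of Ass1. Leaving out any 1 of 7 libraries lost it for Arg1, any 1 of 4 for Asl and 1 for Ass1. For the rhythm among 4 paradigms 0 became 2 with DESeq2. For the mean of arrhythmic against night-restricted feeding 2 became 1 with no filter, 4 with the slope, 4 with block and slope, 0 without the 5 libraries and 1 with own libraries. For arrhythmic against ad libitum feeding 1 became 2 with the slope and 3 with block and slope. For incompletely adapted against night-restricted feeding 2 became 1 without the 5 libraries. For the rhythm of arrhythmic against night-restricted feeding 2 became 1 with no filter, the replicate block, the slope, block and slope, without the 5 libraries and with own libraries, and 0 with time as a factor. Own libraries means fewer samples in the fit, and the cause of the other changes was not tested.

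Leaving out replicates, singly or by number, gave 1 to 4 rhythmic members with night-restricted and 0 to 1 with incompletely adapted arrhythmic feeding, and left the count at 0 with ad libitum and 1 with arrhythmic feeding. The mean count among 4 paradigms ran from 1 to 4, with 2 when replicate 3 of arrhythmic feeding at ZT18 was left out, and the rhythm count from 0 to 1. By pair the mean counts ran from 1 to 2 (arrhythmic against night-restricted), 0 to 1 (arrhythmic against ad libitum), 0 to 1 (night-restricted against ad libitum, 1 without replicate 2 of ad libitum feeding at ZT10) and 0 to 4 (incompletely adapted against night-restricted), and the rhythm count of arrhythmic against night-restricted feeding from 0 to 3. The remaining 5 pair counts stayed at 0.

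The only reversed values were those of Nags between arrhythmic and night-restricted feeding, at 0.23 with the slope and 0.24 with block and slope. The labels do not pair the replicate numbers, and the samples were not treated as paired. The rule for pairing asked that every same-numbered pair correlate above 0.1. Over 828 such pairs, with r from -0.77 to 0.83, this could hardly be met, so it cannot decide whether the numbers matter. Deviations of same-numbered libraries had a median correlation of 0.044 with 41.9% of pairs over 0.1. For other numbers these were -0.018 and 35.8%, with r from -0.81 to 0.83. As a hint from the data, 34 of 72 libraries correlated best with their own number. Each library was set against 3 numbers, and the count to be had by chance was not worked out. Of the 5 libraries of extreme GC slope, 4 carry number 1 of night-restricted feeding. The replicate block alone lost the Slc25a15 call in that rhythm comparison (adjusted p = 0.0526, count 1) and changed no other call of a member. At these depths the counts of the members are not the limit; the spread between replicates is.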
